A study of Mus musculus with 18 samples.

Results

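The testis after 3 days of follicle-stimulating hormone (FSH) was described in 4 mice treated for 72 h and 4 untreated controls whose arrays belong to the same array set, 8 of the 18 arrays measured. By the labels all mice were hypogonadal (hpg) males at 10 weeks of age, and no strain or littermate control is named. Treated males received recombinant FSH (Gonal F) under the skin at 8 IU every 12 h and were killed 1 h after the last injection, and the controls received nothing. Whole testes were taken, so all testicular cell types are pooled, and RNA of 1 mouse went on 1 single-colour Affymetrix MOE430A array. The array set was read from the Dap spike-in, a control transcript added before labelling, which was at 8.05 to 8.86 on 12 arrays and at 2.70 to 3.41 on the other 6. The 12 arrays with the spike-in are the 8 described here, called control 4 to 7 and 72 h replicates 1 to 4, and 4 arrays of mice treated for 12 h, which share the estimate of the spread and are compared with 72 h at the end.

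Hpg mice make no functional gonadotrophin-releasing hormone, so their pituitaries release very little FSH or luteinising hormone and their testes stay small, with spermatogenesis arrested early. The FSH receptor is found on Sertoli cells, which form the wall of the seminiferous tubules and nurse the germ cells, and signals through cyclic AMP. Leydig cells, between the tubules, make androgen under luteinising hormone, and androgen acts on Sertoli cells through its own receptor.

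Each probe set has 1 deposited log2 value per array, so a difference of 1 is a 2-fold change, and each difference is given as the 72 h mean minus the control mean with the standard error (SE) of the limma fit, which pools the spread of the 12 arrays and moderates it over probe sets. A probe set was called where the adjusted p of a limma fit over 22626 probe sets was below 0.05. A gene is represented by its probe set with the highest mean, which gave 12393 genes. Each call was repeated in 20 alternative fits, 12 of which left out 1 array, or in 19 for genes with a mean below 4, which 1 fit leaves out. Unless a number of fits is given, the calls named for single genes against the controls held in all of them. The mice are separate animals, and each p-value sets a difference against the spread between them, pooled and moderated as above.

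Controls 5 and 6 stood apart in germ cell transcripts. In control 6, the spermatid genes Tnp1, Tnp2, Prm1 and Prm2, whose proteins pack sperm DNA, were at 11.65, 12.06, 12.04 and 12.30, and none of them passed 3.56 on the other 11 arrays. Odf1, a protein of the sperm tail, and Acrv1, of the acrosome, were at 10.64 and 7.68 in control 6 and at most 2.99 and 2.62 elsewhere. In control 5, the spermatocyte genes Ldhc and Piwil1 were at 6.48 and 3.57, against 10.96 to 12.42 and 7.34 to 7.97 in the other controls. The summed level of 14 spermatocyte and spermatid genes (log2 of the sum of unlogged values) was 11.86, 9.12, 14.87 and 12.35 in controls 4 to 7 and 12.24, 11.76, 11.07 and 11.14 at 72 h. None of the 14 was called, with 0 higher and 1 lower at an unadjusted p below 0.05 in the limma fit, and their median difference was -1.30 with control 6 and 0.04 without it. Without controls 5 and 6 together, 1 of the 14 was called lower and the median difference was -0.09. Control 6 is an hpg control by its label alone, no other array of the set resembles it in these genes, and whether its label is right was not tested. It enters every control mean, and leaving out control 5, control 6 or both is among the alternative fits.

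**Figure D1:**
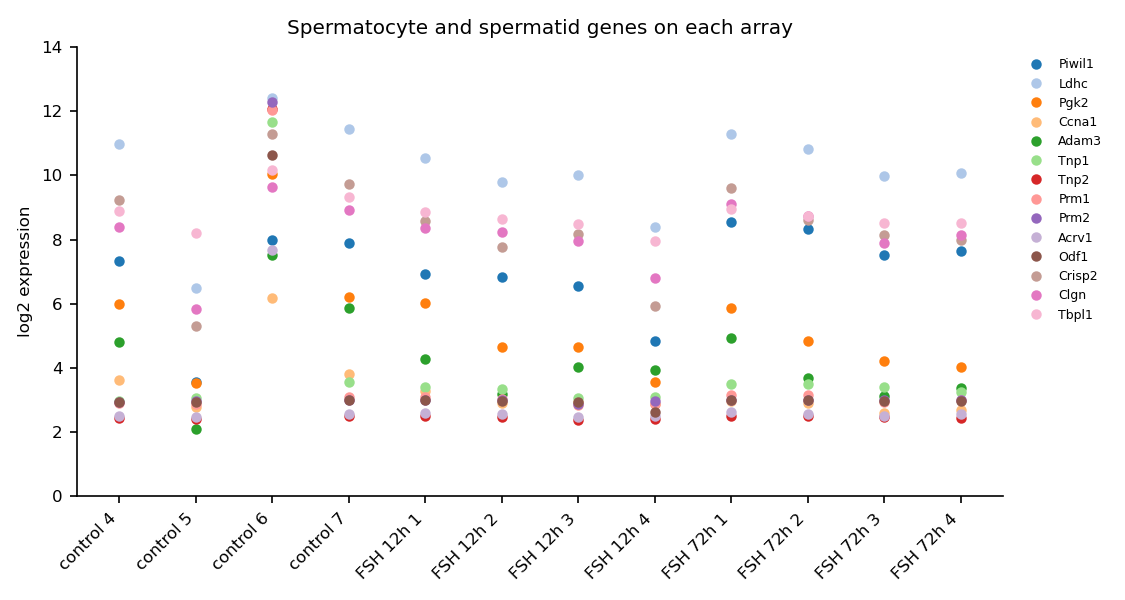
Log2 expression of 14 spermatocyte and spermatid genes on each of the 12 arrays, 1 point per gene and array (controls 4 to 7, then 12 h and 72 h replicates 1 to 4). The spermatid genes Tnp1, Tnp2, Prm1, Prm2 and Odf1 are above 10 in control 6 and below 4 on every other array, and Ldhc is lowest in control 5 at 6.48.

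Markers of the labelled tissue were present. Clu, a secreted chaperone of Sertoli cells, was at 14.33 to 14.79 in the controls and 14.21 to 14.73 at 72 h, and Sycp3, of the meiotic chromosome axis, at 11.69 to 12.22 and 11.75 to 12.33. Hsd3b1, a steroid enzyme of Leydig cells, was at 11.21 to 12.45 and 11.45 to 11.61. Amh, anti-Müllerian hormone of immature Sertoli cells, lay at the floor of the array (1.54 to 1.58 on all 12 arrays), as did Hsd17b3, which completes testosterone synthesis, on most of them (2.66 to 3.77). In whole tissue, fewer cells of a type and less RNA per cell cannot be told apart.

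After 72 h of FSH, 1612 of 22626 probe sets were called (7.12%), 909 higher (4.02%) and 703 lower (3.11%). The count fell to 1058 without 72 h replicate 3 (605 higher, 453 lower), and the lower calls to 467 without 72 h replicate 2. By gene, 585 of 12393 were higher (4.72%) and 478 lower (3.86%), and of these 146 rose (1.18%) and 128 fell (1.03%) by 2-fold or more. All 4 treated arrays lay above all 4 controls in 566 of the 585 genes and below them in 458 of the 478, against 925 (7.46%) and 837 (6.75%) of all genes. The median gene differed by 0.01. Counts of called members in the gene lists below stand beside these 4.72% and 3.86% of all genes. Rises made up 56.4% of the calls, 69.3% of the 1702 calls when each array was centred on its median, and 48.9% of 1586 without control 6.

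**Figure D2:**
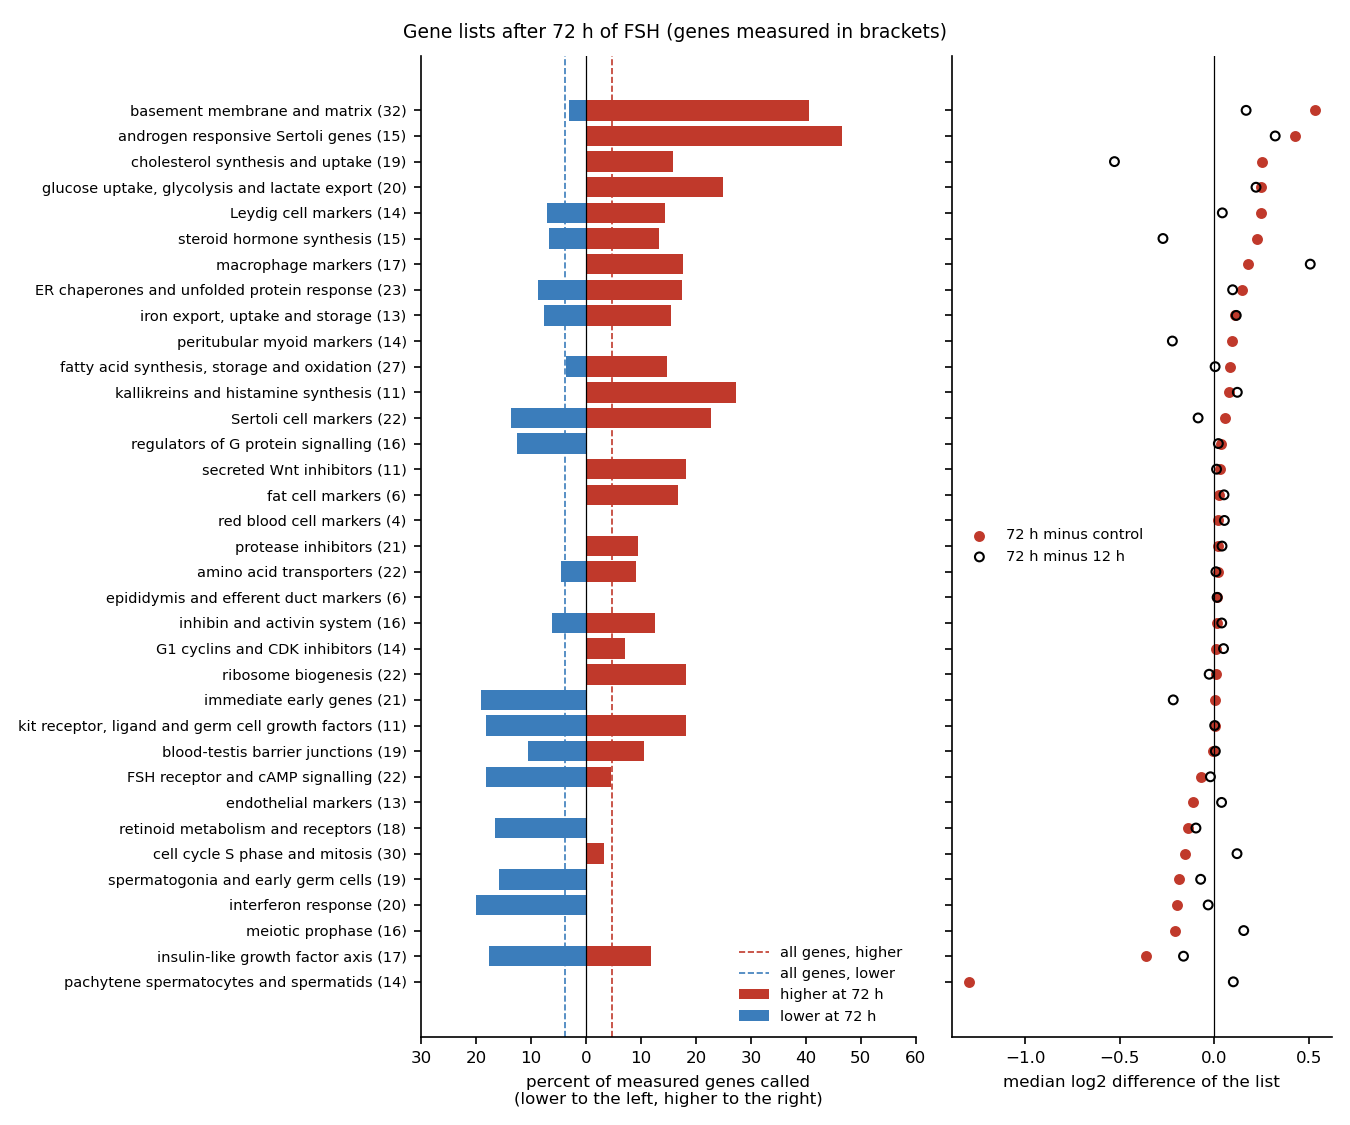
The 35 gene lists, with the number of genes measured in brackets: on one side the median log2 difference between 72 h and the controls, on the other the percentage of members called higher or lower beside the percentages over all genes, 4.72% and 3.86%. The androgen responsive Sertoli genes (7 of 15 higher) and the basement membrane and matrix genes (13 of 32 higher) have the largest shares called higher.

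Drd4, the dopamine receptor D4, had the largest difference on the deposited log2 scale. Drd4 was at 1.98, 1.97, 2.36 and 2.22 in controls 4 to 7 and at 7.70, 7.93, 8.64 and 8.996 in 72 h replicates 1 to 4. The controls lay near the floor of the array and no treated array came near them, a difference of 6.19 (SE 0.25, adjusted p = 1.82e-06). Its size, and that of other genes whose controls or treated arrays lie below 4, depends on how the deposited values treat dim probe sets, so no fold is given. A second, dimmer probe set of Drd4 rose by 2.84 (adjusted p = 0.00315). Slc38a5, a transporter of glutamine and other neutral amino acids, was at 3.88, 3.28, 3.85 and 3.59 in the controls and at 7.86, 8.23, 8.36 and 8.75 at 72 h, which is 4.65 higher (SE 0.26, adjusted p = 1.1e-05). Its groups were separated by more than 3 log2 units.

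Rhox5, a homeobox gene on the X chromosome long used as a reporter of androgen action in Sertoli cells, was at 4.19, 3.83, 5.56 and 3.02 in the controls and at 8.35, 8.07, 8.68 and 8.59 at 72 h. The controls were more scattered than the treated arrays, with control 6 highest, and the groups did not overlap. The difference was 4.27 (SE 0.46, adjusted p = 0.00049) and 4.74 without control 6 (adjusted p = 8.59e-05). Eppin, a secreted protease inhibitor that coats sperm, rose from 6.51, 5.91, 7.10 and 5.81 to 9.26, 9.69, 9.30 and 9.52 (3.11, SE 0.38, adjusted p = 0.00103). Tsx, another X-linked gene expressed in Sertoli cells, rose from 8.06, 8.52, 9.30 and 8.54 to 10.65, 11.14, 10.86 and 11.09 (2.33, SE 0.31, adjusted p = 0.00153). In both, control 6 was the highest control and still lay below every treated array, and without it the differences were 3.37 and 2.56.

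These 3 genes and Drd4 belong to a list of 15 genes reported to respond to androgen in Sertoli cells, of which 7 rose and 0 fell (median difference 0.43, against 0.01 over all genes). The 7 calls held in every alternative fit, and without control 6 or without control 7, 1 member was also called lower. The other risers were Tubb3, a tubulin, at 5.81 to 6.37 in the controls and 9.06 to 9.29 at 72 h (3.06, SE 0.14, adjusted p = 3.91e-06), Fah, the last enzyme of tyrosine breakdown (3.04, adjusted p = 0.000145), and Gpd1, which makes glycerol phosphate (2.20, adjusted p = 3.91e-06). A second probe set of Gpd1 rose by 0.45 and 2 dimmer ones were not called (0.40 and 0.01). Members that were not called include Serpina5, another protease inhibitor (0.09), Cldn11 and Cldn3, claudins of the blood-testis barrier (0.11 and 0.34), and Fhod3 (-1.42, adjusted p = 0.0719). The androgen receptor gene was not analysed here. The list was put together with earlier results of these data known, so its count is a description.

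Promoter windows are shown for 4 genes picked by hand among the large rises, Rhox5, Klk1b24, Drd4 and Tsx. They set genes with and without a hormone response hexamer side by side, so that split is a choice. The window of Slc38a5 is shown for an E box. All windows are the 250 bases before the start annotated by RefSeq (build GRCm38.p6, all on the + strand): Rhox5 at chrX:37754358-37754607, Klk1b24 at chr7:44187986-44188235, Drd4 at chr7:141291768-141292017, Tsx at chrX:103414217-103414466 and Slc38a5 at chrX:8271131-8271380. Capitals mark TGTTCT or its reverse complement AGAACA in the first 4, and the E box CACGTG in Slc38a5.
Rhox5: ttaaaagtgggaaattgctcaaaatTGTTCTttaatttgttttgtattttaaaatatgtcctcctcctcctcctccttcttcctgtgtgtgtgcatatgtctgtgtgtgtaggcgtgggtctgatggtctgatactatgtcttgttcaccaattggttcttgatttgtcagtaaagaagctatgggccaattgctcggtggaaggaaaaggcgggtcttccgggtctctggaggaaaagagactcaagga
Klk1b24: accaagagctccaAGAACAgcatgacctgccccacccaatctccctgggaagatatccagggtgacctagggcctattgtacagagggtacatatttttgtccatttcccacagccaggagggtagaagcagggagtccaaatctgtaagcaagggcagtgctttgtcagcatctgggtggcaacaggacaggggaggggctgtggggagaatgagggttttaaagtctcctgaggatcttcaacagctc
Drd4: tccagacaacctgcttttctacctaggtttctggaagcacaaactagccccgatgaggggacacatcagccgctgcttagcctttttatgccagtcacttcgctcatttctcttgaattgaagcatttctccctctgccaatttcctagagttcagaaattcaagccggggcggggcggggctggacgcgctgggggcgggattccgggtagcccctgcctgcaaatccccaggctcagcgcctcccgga
Tsx: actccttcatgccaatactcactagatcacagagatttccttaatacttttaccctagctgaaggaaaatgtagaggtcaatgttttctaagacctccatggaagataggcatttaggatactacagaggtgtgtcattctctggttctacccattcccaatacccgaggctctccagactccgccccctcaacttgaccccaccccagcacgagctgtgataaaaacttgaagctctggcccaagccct
Slc38a5: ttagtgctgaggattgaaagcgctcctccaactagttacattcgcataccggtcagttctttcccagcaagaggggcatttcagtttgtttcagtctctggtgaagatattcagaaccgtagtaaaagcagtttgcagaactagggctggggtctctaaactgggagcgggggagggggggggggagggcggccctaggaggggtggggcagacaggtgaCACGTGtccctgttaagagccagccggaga
The hexamer begins 225 bases before the start in Rhox5 and 237 before it in Klk1b24, and was not found in the windows of Drd4 and Tsx. The E box begins 30 bases before the start of Slc38a5. Over windows of 300 bases (250 before to 50 after the start), searched on both strands, TGTTCT was present in 17.6% of 466 genes called higher, 13.5% of 399 called lower and 16.6% of all 9887 measured genes with a window. The cyclic AMP response element TGACGTCA was present in 3.00%, 1.75% and 2.99%, and TGACG, which that element contains, in 30.9%, 30.6% and 31.4%. The NR5A1 motif TCAAGGTCA was present in 0.429%, 0% and 0.344%, and CACGTG in 12.0%, 12.0% and 10.8%. These are matches of letters in windows set by RefSeq's annotated starts.

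Among other large rises, Klk1b24, a tissue kallikrein protease, was at 3.48 to 3.63 in the controls and at 6.47, 6.39, 5.91 and 7.63 at 72 h (3.07, SE 0.32, adjusted p = 0.000399). Hdc, which makes histamine from histidine, rose from 4.80, 5.72, 5.34 and 4.45 to 7.66, 7.76, 8.07 and 8.28 (2.86, SE 0.27, adjusted p = 0.000235). With Klk1 (2.04, adjusted p = 0.0373), which held in 13 of 20 fits and reached 1.88 (adjusted p = 0.0989) without control 4, they were the 3 of 11 kallikrein and histamine genes called higher. Other probe sets of Klk1 differed by 2.09 (called) and 0.40 (not called). Kallikreins are near-identical in sequence, so probe sets of the family may share signal. St8sia2, which adds polysialic acid to cell surface proteins, rose by 2.41 (SE 0.41, adjusted p = 0.00626), and Scara5, a scavenger receptor that takes up ferritin, by 2.14 (SE 0.15, adjusted p = 3.86e-05).

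**Figure D3:**
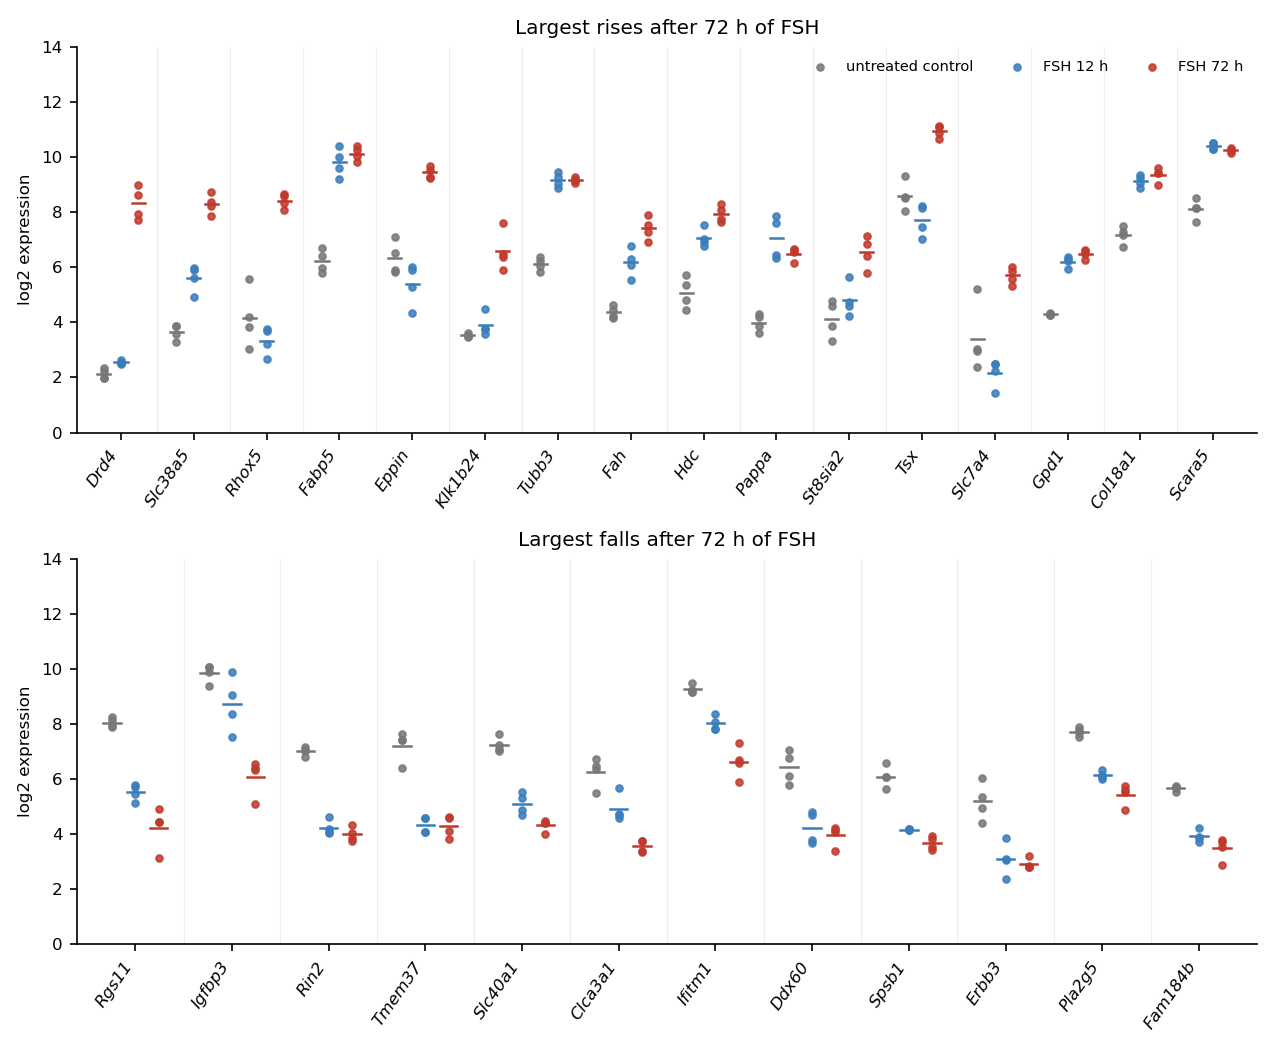
Log2 expression of the 16 genes with the largest rises and the 12 with the largest falls after 72 h of FSH, 1 point per array, for the controls, 12 h and 72 h of the same array set. In each gene the 4 arrays at 72 h lie outside the range of the 4 controls, by choice of the genes. Tubb3, Fabp5 and Scara5 are already high at 12 h, and Drd4, Rhox5, Eppin and Tsx are highest at 72 h.

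The hormone's own pathway was represented by 16 inhibin and activin genes and 22 genes of FSH receptor and cyclic AMP signalling. Inha, the inhibin alpha subunit that Sertoli cells secrete to restrain pituitary FSH, was at 9.98, 10.31, 9.81 and 9.88 in the controls and at 11.99, 11.99, 11.91 and 11.87 at 72 h. All treated arrays lay above all controls, a rise of 1.94 (SE 0.12, adjusted p = 2.2e-05, 3.85-fold). Inhbb, the beta B subunit, rose by 0.72 (SE 0.09, adjusted p = 0.0014), with a dimmer probe set at 0.22. Inhba, the beta A subunit, differed by 0.37 (adjusted p = 0.337) and Fst, the activin antagonist follistatin, lay near the floor (-0.14, adjusted p = 0.728). Smad4, a signal carrier of the activin family, was the 1 of 16 called lower (-0.50, adjusted p = 0.0412, other probe sets -0.25 and -0.28), and lost its call without any one of 8 arrays (controls 4, 5 and 7, 72 h replicates 2 to 4, 12 h replicates 3 and 4).

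Fshr, the FSH receptor, was lower after its hormone. It was at 6.78, 6.62, 6.39 and 6.24 in the controls and at 4.96, 5.39, 5.68 and 5.55 at 72 h, without overlap (-1.11, SE 0.16, adjusted p = 0.00246). The call held in 19 of 20 fits and was lost with all 18 arrays and no block for the array set (-0.72, adjusted p = 0.107). In the signalling list 1 gene was called higher and 4 lower (median -0.07). Apart from Fshr these calls held in 7 to 11 fits: Pde4b, a cyclic AMP phosphodiesterase (1.64), Rapgef3, the cyclic AMP sensor EPAC1 (-1.02), Grk5, a receptor kinase (-0.54), and Adcy3, an adenylate cyclase (-0.44). Dimmer probe sets were not called for Pde4b (0.37) or Adcy3 (-0.01, 0.05 and 0.02). For Rapgef3, another probe set was called lower (-0.74) and others were not called (-0.50 and -0.09). The 4 lower calls became 1 without control 4, 72 h replicate 2 or 72 h replicate 3, and the 1 higher call was lost without any one of 9 arrays (all but 12 h replicates 1 to 3). The lower calls became 2 without control 5, control 7, 72 h replicate 1 or 72 h replicate 4. Of 16 regulators of G protein signalling, which switch off receptor signals, 2 fell: Rgs11 by 3.82 (SE 0.32, adjusted p = 0.000133) from 8.14, 8.25, 7.91 and 7.92 to 4.91, 3.13, 4.46 and 4.45, and Rgs10 by 1.45 (adjusted p = 0.00492). The list's median was 0.04, and other probe sets of Rgs2 (-0.63) and Rgs5 (0.50) were called.

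Among genes of steroid synthesis, Star, which carries cholesterol into mitochondria, was at 5.19, 6.42, 5.22 and 5.62 in the controls and at 6.25, 6.58, 6.59 and 6.52 at 72 h. The groups overlapped through control 5, and the difference of 0.87 (SE 0.29, adjusted p = 0.109) became 1.14 (adjusted p = 0.0176) without that array. Cyp17a1, which turns progestins into androgens, was at 7.30 to 9.55 and 8.35 to 9.28 (0.40, adjusted p = 0.707), and Cyp11a1, which cuts the cholesterol side chain, at 2.69 to 4.40 and 3.56 to 6.59 (1.54, adjusted p = 0.3). Hsd3b1 differed by -0.18 (adjusted p = 0.776). Of 15 steroid genes, 2 were higher (13.3%) and 1 lower (6.67%), beside 4.72% and 3.86% of all genes (median 0.23). Scarb1, the receptor for high density lipoprotein, rose by 0.77 (adjusted p = 0.00193). Nr0b1, an orphan nuclear receptor (0.54, adjusted p = 0.0291), held in 13 fits and was lost without control 4, 6 or 7 or 72 h replicate 2, 3 or 4. Stard3, a carrier of cholesterol (-0.60, adjusted p = 0.0398), held in 6 and was lost without any one of 9 arrays (controls 4 to 6, 72 h replicates 1 to 3, 12 h replicates 2 to 4). Of 14 Leydig markers, Igf1 and Gsta4, a glutathione transferase (0.98, adjusted p = 0.000193), rose, and Akr1cl fell by 0.72 (adjusted p = 0.0242), a call held in 17 fits and lost without control 5 or 72 h replicate 2.

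The basement membrane and matrix list had the most genes called higher, and is also the largest of the 35 lists. By share called higher (40.6%) it came after the androgen responsive genes (46.7%). Of 32 matrix genes, 13 were higher and 1 lower, with a median of 0.53, and leaving out 1 array gave 10 to 14 higher calls. Col18a1, a basement membrane collagen, rose from 7.27, 7.51, 6.74 and 7.19 to 8.99, 9.44, 9.62 and 9.41 (2.19, SE 0.18, adjusted p = 9.95e-05). Among the type IV chains, Col4a3 rose from 4.45, 4.48, 4.49 and 4.65 to 6.19, 6.24, 6.25 and 6.32 (1.73, adjusted p = 4.45e-05), Col4a1 by 1.65 (adjusted p = 0.000527), Col4a2 by 1.10 (adjusted p = 0.00231) and Col4a4 by 0.90 (adjusted p = 0.00908). In these 5 genes every treated array lay above every control.

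The fibrillar collagen genes Col5a2 (1.77, adjusted p = 0.00287) and Col1a1 (1.65, adjusted p = 0.00878) rose, the former with a second probe set at 0.96 (adjusted p = 0.076). Col1a2 (0.81, adjusted p = 0.0555) and Col3a1 (0.87, adjusted p = 0.0617) missed the threshold. Serpinh1, the collagen chaperone HSP47 (0.91), Sparc, a collagen-binding glycoprotein (0.78), and Lamb2, a laminin chain (0.77), rose with adjusted p of 0.00311, 0.0106 and 0.00379. Col6a2 (0.97), Mmp14, a membrane protease (0.61), and Timp2, a protease inhibitor (0.22), were called in 14, 8 and 10 of 20 fits. The core laminin and nidogen genes Lamc1, Lamb1, Lama5, Nid1 and Nid2 lay between -0.12 and 0.01 and were not called. Timp3, an inhibitor of matrix proteases, was the member that fell, from 9.29, 10.19, 9.73 and 9.66 to 8.20, 8.21, 8.53 and 8.32 (-1.40, adjusted p = 0.00446).

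In the insulin-like growth factor (IGF) axis the ligands moved in opposite directions. Igf1 rose from 8.48, 8.86, 8.62 and 8.39 to 9.96, 10.40, 10.46 and 10.48 (1.74, SE 0.13, adjusted p = 5.6e-05), and 2 further probe sets rose by 2.12 and 2.26. Igf2 fell from 9.66, 9.72, 9.38 and 9.60 to 8.31, 8.23, 8.21 and 8.07 (-1.39, SE 0.12, adjusted p = 0.000156), with a second probe set near the floor. Neither ligand's groups overlapped. Igfbp3, which binds both ligands in the fluid outside cells, fell most, from 10.08, 10.09, 9.37 and 9.89 to 6.42, 6.56, 6.33 and 5.08 (-3.76, SE 0.48, adjusted p = 0.00128, 13.5-fold). Pappa, a protease that frees IGF from its binding proteins, rose from 3.89, 3.60, 4.19 and 4.30 to 6.54, 6.64, 6.66 and 6.16 (2.50, SE 0.34, adjusted p = 0.00168). Of 17 members, 2 were higher (11.8%) and 3 lower (17.6%), beside 4.72% and 3.86% of all genes (median -0.36). Igfbp2 (-0.36, adjusted p = 0.0428) held in 6 fits and was lost without any one of 9 arrays (all but control 6 and 12 h replicates 1 and 2). The receptors Igf1r (-0.61, adjusted p = 0.179) and Igf2r (-0.64, adjusted p = 0.298) were not called.

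**Figure D4:**
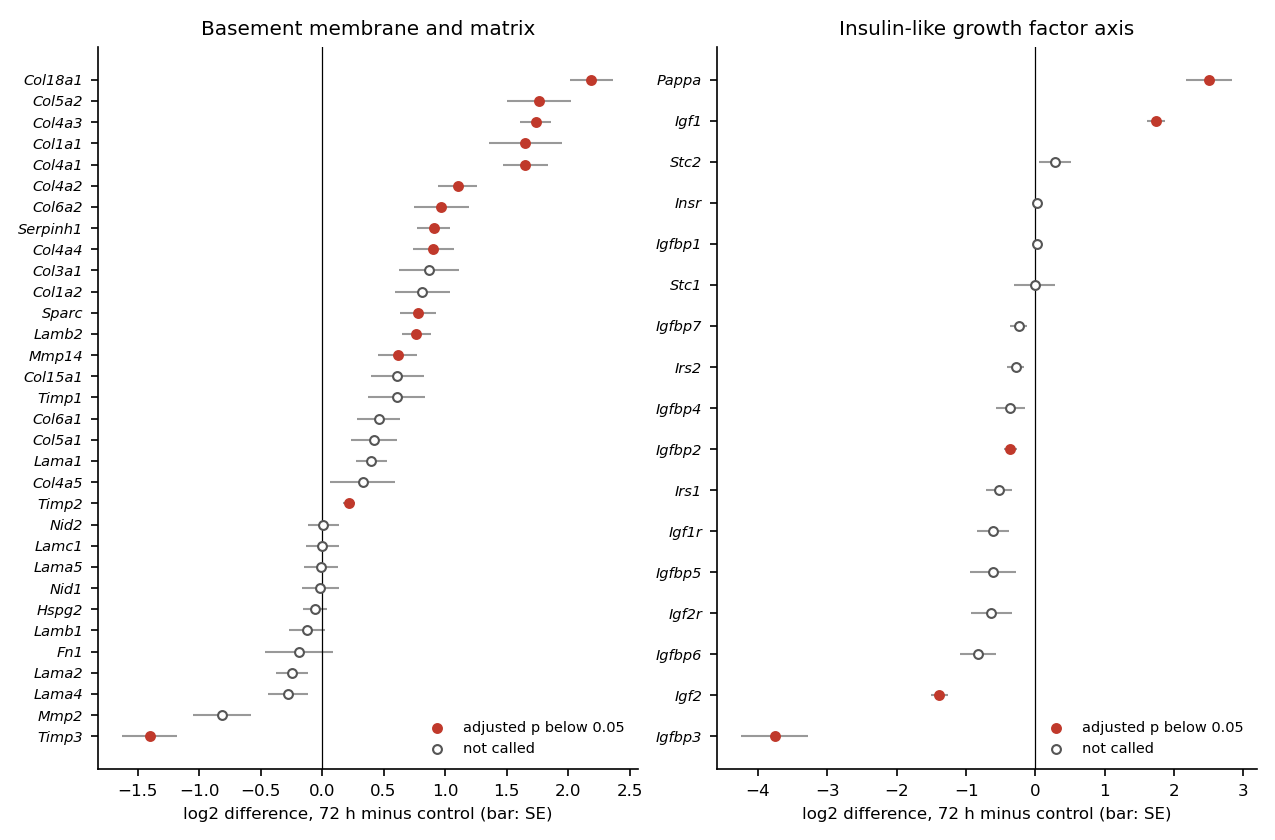
Log2 difference between 72 h and the controls, with SE as bars, for 32 matrix genes and 17 genes of the IGF axis. Filled points passed the adjusted p of 0.05: 13 matrix genes lie above 0 and Timp3 below it, and in the IGF axis Pappa and Igf1 lie above 0 and Igfbp3, Igf2 and Igfbp2 below it.

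Genes of lipid handling rose in part. Fabp5, a fatty acid carrier, went from 5.98, 6.69, 6.40 and 5.79 to 9.82, 10.05, 10.26 and 10.40 (3.92, SE 0.27, adjusted p = 3.63e-05, 15.1-fold), without overlap. Of 27 fatty acid genes, 4 were higher and 1 lower (median 0.08): beside Fabp5, Fabp3, another carrier (1.52, adjusted p = 0.0128), and Fads2, a desaturase (1.07, adjusted p = 0.0018), held in every fit. Fabp4 (1.85, adjusted p = 0.00814), also a fat cell marker, held in 17 and was not called without controls 5 and 6 together, with another probe set at 0.74 (adjusted p = 0.0577). The other 5 fat cell genes measured were not called. Dgat1, which makes triglyceride, was the lower member (-0.47, adjusted p = 0.0298), held in 11 fits and lost without control 4, 6 or 7 or 72 h replicate 1, 2 or 3. In cholesterol synthesis, the late enzymes Tm7sf2 (0.68, adjusted p = 0.00253), Dhcr7 (0.61, adjusted p = 0.00713) and Ebp (0.54, adjusted p = 0.013) were the 3 of 19 genes called higher (15.8%, beside 4.72% of all genes), and 0 were lower (median 0.25).

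For glucose use, 5 of 20 genes were higher (25%, beside 4.72% of all genes) and 0 lower (median 0.25), and without controls 5 and 6 together 2 were higher and 1 lower. Pgk1, a glycolytic kinase, rose from 8.18, 8.25, 7.85 and 7.56 to 8.93, 8.96, 8.92 and 9.13 (1.03, adjusted p = 0.00291) and held in every fit. Slc16a3, which exports lactate (1.24), Pfkfb3, which sets the level of a glycolysis activator (1.09), and Hk2, a hexokinase (0.77), each held in 19 of 20 fits and were lost without controls 5 and 6. Aldoa, an aldolase (0.45, adjusted p = 0.0267), held in 12.

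Among 22 amino acid transporters, Slc38a5 rose as given above and 2 more were called. Slc7a4 was at 2.97, 3.02, 5.21 and 2.39 in the controls and at 5.34, 6.01, 5.58 and 5.88 at 72 h (2.31, SE 0.53, adjusted p = 0.0267). Control 6 came close to the lowest treated array, and the difference without it was 2.91 (adjusted p = 0.000508). The call held in 12 of 19 fits and was lost without any one of 72 h replicates 2 to 4 (adjusted p = 0.0731 without replicate 2) and controls 4, 5 and 7. Slc6a6, the taurine transporter, was lower (-1.66, adjusted p = 0.0385, held in 9 fits), and lost its call without any one of 72 h replicates 2 to 4, controls 5 to 7 and 12 h replicate 3. In iron handling (13 genes), Slc40a1, the iron exporter ferroportin, fell from 7.09, 7.64, 7.03 and 7.25 to 4.42, 4.42, 4.48 and 4.01 (-2.92, SE 0.20, adjusted p = 3.66e-05). Slc11a2, an iron importer, rose by 1.87 (SE 0.18, adjusted p = 0.000254), with other probe sets at 0.95 and 0.37, and Tfrc, the transferrin receptor (0.61, adjusted p = 0.0407), held in 10 fits and was lost without control 5 or any 1 treated array. Other probe sets of Tfrc were at 0.20 and -0.65 and not called.

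Sertoli markers moved both ways, 5 of 22 higher (22.7%) and 3 lower (13.6%), beside 4.72% and 3.86% of all genes (median 0.06, and -0.021 without control 6). Shbg, the androgen-binding protein of the tubule, was at 8.09, 7.78, 8.00 and 8.31 in the controls and at 9.39, 9.46, 9.15 and 9.06 at 72 h (1.22, adjusted p = 0.00183). Hopx, a small homeodomain protein, rose by 1.41 (adjusted p = 3e-05) and Ctsl, a cathepsin, by 0.64 (adjusted p = 0.00122), and in all 3 the groups were apart. Dhh, the hedgehog ligand of Sertoli cells (0.64, adjusted p = 0.0141), held in 18 fits and Nr0b1 in 13. Sox9, a fate-setting transcription factor, was lower (-0.61, adjusted p = 0.00976, held in 19 fits), with a second probe set at -0.21. Gdnf, the growth factor for spermatogonial stem cells, lay near the floor, at 3.88, 3.68, 2.98 and 2.60 in the controls and 2.40 to 2.43 at 72 h, and its call (-0.87, adjusted p = 0.0498) held in 3 of 19 fits. Of the 3 lower calls, 0 held in every fit. Clu (-0.11) and Wt1 (-0.27) were not called.

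Early germ cell genes were lower where they changed. Of 19, 0 were higher and 3 lower (median -0.19). Stra8, which cells switch on before meiosis, fell from 9.83, 10.19, 9.64 and 9.82 to 8.61, 8.90, 8.64 and 9.21 (-1.03, SE 0.16, adjusted p = 0.00356), and Sall4, of undifferentiated spermatogonia, from 6.67, 6.36, 6.40 and 6.42 to 5.23, 5.52, 5.64 and 5.36 (-1.03, SE 0.13, adjusted p = 0.0014). The groups did not overlap in either gene. Control 6, the array with spermatid transcripts, was the lowest control for Stra8 and had the lowest summed level of this list among the controls. Lin28a (-1.11, adjusted p = 0.0322, second probe set -0.18) held in 13 fits and was lost without control 4, 5 or 7 or 72 h replicate 1 or 2. Kit, the receptor of differentiating spermatogonia (-0.78, adjusted p = 0.138), Dazl, a germ cell RNA-binding protein (-0.32, adjusted p = 0.378), and Sycp3 (0.02, adjusted p = 0.96) were not called. None of 16 meiotic genes was called in the limma fit, with 0 higher and 5 lower at an unadjusted p below 0.05 (median -0.21), and 1 was called lower without control 6.

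Cxcl12, a chemokine of the germ cell niche, fell from 10.22, 10.61, 9.91 and 10.14 to 8.95, 8.90, 8.84 and 8.64 (-1.39, adjusted p = 0.0103) and held in 19 fits. Kitl, the ligand of Kit, did not pass (0.27, adjusted p = 0.413). In the list of 11 germ cell growth factors, Igf1 and Csf1, the macrophage growth factor (1.03, adjusted p = 0.0347, held in 10 fits), were higher, and Cxcl12 and Gdnf lower. Csf1 was lost without any one of 72 h replicates 1 to 4, controls 5 to 7 and 12 h replicate 4, and Gdnf without any one array other than controls 6 and 7. Dimmer probe sets of Csf1 were at 0.62 (called), 0.22 and 0.13 (both not called). Of 19 junction genes of the blood-testis barrier, Jam3 (0.91, adjusted p = 0.00969, 19 fits) and Nectin2 (0.72, adjusted p = 0.023, 13 fits) were higher, and F11r, the adhesion molecule JAM-A (-0.93, adjusted p = 0.00704), and Marveld2, tricellulin (-0.52, adjusted p = 0.0129, 19 fits), were lower. That is 10.5% in each direction, beside 4.72% and 3.86% of all genes. Dimmer probe sets of Jam3 (0.10) and F11r (0.02) were not called. A second probe set of Nectin2, at 6.80 in both groups, was not called (0.00, adjusted p = 0.998), and the call was lost without control 4 or 7 or 72 h replicate 2, 3 or 4. Of 18 retinoid genes 3 were lower and 0 higher: Aldh1a3, which makes retinoic acid (-0.87, adjusted p = 0.00544), in 18 fits and with a second probe set at -0.12, Crabp1 (-0.58) in 6 and Rxrb (-0.31) in 5. The 3 became 1 without any one of 7 arrays (controls 4, 5 and 7, 72 h replicates 2 to 4, 12 h replicate 4).

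Of 17 macrophage markers, 3 rose (17.6%, beside 4.72% of all genes) and 0 fell (median 0.18), and the 3 calls held in every fit. Cd68, a lysosomal membrane protein, rose from 5.84, 5.34, 5.43 and 5.64 to 7.30, 6.55, 6.65 and 7.09 (1.34, SE 0.17, adjusted p = 0.00127). Fcer1g, a signalling chain of Fc receptors (1.04, adjusted p = 0.00715), and Mrc1, the mannose receptor (0.79, adjusted p = 0.00582), rose without overlap. The summed level of the list was 10.15 to 10.70 in the controls and 10.65 to 11.04 at 72 h, with 72 h replicate 1 highest, while Csf1r (-0.29) and Aif1 (-0.62, with control 6 at 6.71) were not called and Cd14, Cd163 and Itgam stayed at or below 2.50 on all 12 arrays. Endothelial (13), red blood cell (4), epididymal (6) and peritubular myoid (14) markers gave 0 calls in the limma fit, with 2, 0, 0 and 3 genes at an unadjusted p below 0.05, and 1 myoid gene was called higher without control 5 or 72 h replicate 1 and 1 endothelial gene lower without 72 h replicate 2. Other probe sets of the myoid genes Mylk (0.68) and Tpm2 (0.95) were called higher.

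Interferon-induced genes were among the falls. Ifitm1 fell from 9.15, 9.24, 9.15 and 9.49 to 7.32, 6.71, 6.59 and 5.91 (-2.63, SE 0.25, adjusted p = 0.000233), and Ddx60, an antiviral helicase, by 2.48 (SE 0.35, adjusted p = 0.00231). Both were chosen for the size of their change. On the list of 20 interferon response genes 4 were lower (20%, beside 3.86% of all genes) and 0 higher (median -0.19): Oasl2 (-1.43), Ifit3 (-1.42), Gbp2 (-0.73) and Irf1 (-0.63), with adjusted p of 0.0248, 0.0283, 0.034 and 0.0408. These 4 held in 8 to 14 fits, and a second probe set of Gbp2 was not called (-0.45). The count was 0 without control 7, 72 h replicate 2 or 72 h replicate 4, 1 without control 6 or 72 h replicate 3, and 2 without control 4, control 5 or 12 h replicate 4.

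The other large falls include genes of signalling and transport. Rin2, which acts on the endosomal GTPase Rab5, fell from 7.02, 7.06, 6.81 and 7.16 to 4.04, 4.35, 3.85 and 3.76 (-3.01, SE 0.16, adjusted p = 9.84e-06). Tmem37 fell from 7.63, 6.40, 7.44 and 7.42 to 4.11, 4.63, 4.60 and 3.84 (-2.92, SE 0.29), and Clca3a1, of a family of chloride channel regulators, by 2.70 (SE 0.30). In each of the 3 genes the highest treated array lay below the lowest control by more than 1 log2 unit. Spsb1, an adaptor of ubiquitin ligases (-2.42), Pla2g5, a secreted phospholipase (-2.28), and Fam184b (-2.20) fell with adjusted p of 5.16e-05, 5.63e-05 and 0.00011. Erbb3, a growth factor receptor, was near the floor at 72 h (-2.28, adjusted p = 0.00392), a call held in 18 of 19 fits. Dimmer probe sets of Clca3a1, Spsb1 and Erbb3 lay near the floor and were not called, nor were those of Scara5, Slc6a6, Pfkfb3 and Pdia6.

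Wif1, a secreted Wnt inhibitor, was at 3.02 to 3.22 in the controls and at 4.28, 5.08, 5.22 and 4.88 at 72 h (1.73, SE 0.20, adjusted p = 0.000665). With Dkk3 (1.59, adjusted p = 0.0422, held in 8 fits, second probe set 1.11 with adjusted p = 0.0854) it made 2 of 11 Wnt inhibitors higher, and Dkk3 was lost without any one array other than control 7 and 12 h replicate 1. Eppin and Serpinh1 were the 2 of 21 protease inhibitors that rose, and 0 fell, or 1 without control 6, 72 h replicate 4 or 12 h replicate 2. Of 21 immediate early genes, which respond to signals within the hour, 0 were higher and 4 lower (median 0.00). Jun fell by 1.70 (SE 0.30, adjusted p = 0.0076) and Ier3 by 1.33 (SE 0.25, adjusted p = 0.01), while Egr1 (-1.12, adjusted p = 0.017) held in 17 fits and Jund (-0.36) in 12. Without 72 h replicate 3, 2 of the 4 were called.

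Of 22 ribosome biogenesis genes, 4 were higher (18.2%, beside 4.72% of all genes) and 0 lower (median 0.01), and without control 5 or without control 6, 1 was lower. Nhp2, a protein of small nucleolar particles, rose from 9.48, 9.57, 9.42 and 9.34 to 10.65, 10.46, 10.41 and 10.30 (1.002, adjusted p = 0.000397), Rrp9 (0.72) held in 19 fits, and Bop1 (0.54) and Gar1 (0.52) in 9 and 13. Of 23 chaperones and stress genes of the endoplasmic reticulum, 4 were higher (17.4%) and 2 lower (median 0.15). Hsp90b1, the chaperone GRP94 (0.79, adjusted p = 0.00571), and Manf, a secreted stress protein (0.37, adjusted p = 0.0139), held in every fit, Pdia6 (0.48) and Calr (0.46) in 15 and 8, and of the lower ones Herpud1 (-0.88, adjusted p = 0.0127) in 19 and Ddit3 (-0.49) in 7. Tk1, a thymidine kinase (0.82, adjusted p = 0.0156, 17 fits), was the 1 called of 30 cell cycle genes (3.33%, median -0.15), and Cdk4 (0.59, adjusted p = 0.0405, 11 fits) the 1 of 14 G1 regulators. Tk1 was lost without 72 h replicate 3, and Cdk4 without any one of 8 arrays (controls 4, 5 and 7, 72 h replicates 1 to 3, 12 h replicates 3 and 4). The counts of ribosome genes and of higher chaperone genes fell from 4 to 2 without 72 h replicate 2 or 4 or control 4, the former also without 72 h replicate 1 or 3 or control 7 and the latter without control 5.

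Against the 4 mice treated for 12 h, whose arrays belong to the same set, 592 of 22626 probe sets were called at 72 h (2.62%). The count was 308 without 12 h replicate 3, 347 without 12 h replicate 4, and 330, 370 and 358 without 72 h replicates 2, 3 and 4. By gene, 240 of 12393 were higher at 72 h than at 12 h (1.94%) and 161 lower (1.3%), the shares beside which list counts against 12 h stand. This comparison and the one with the controls use the same 72 h arrays. It had 20 alternative fits of its own (19 for genes with a mean below 4), and each call named for it held in all of them unless a number is given. These do not count a planned fit with the replicate number as a block. Of the calls named below, only those of Drd4, Rhox5, Slc7a4, Shbg, Ctsl, Col4a3, Mrc1, Sqle and Col4a1 held in that fit. Eppin (adjusted p = 0.0505 in the limma fit with the block) and Aqp5 (adjusted p = 0.0569) were among those lost.

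Several genes rose after 12 h. Drd4 was at 2.65, 2.52, 2.50 and 2.52 at 12 h, 5.77 below its mean at 72 h (SE 0.25, adjusted p = 7.33e-06). Rhox5 was at 3.76, 3.69, 3.21 and 2.67, which is 5.09 below (adjusted p = 0.000854), and all 4 of these arrays lay under every array at 72 h. Eppin (4.06, adjusted p = 0.000995), Slc7a4 (3.54, adjusted p = 0.00733), Tsx (3.21, adjusted p = 0.000999) and Klk1b24 (2.70, adjusted p = 0.00248) were the next largest rises. Of the 15 androgen responsive genes 6 were higher at 72 h than at 12 h (40%, beside 1.94% of all genes) and 0 lower (median 0.32). Among them were Fah (1.23), held in 8 fits, and Serpina5 (1.21), held in 13. The 6 became 4 without any one of 12 h replicates 3 and 4 and 72 h replicates 2 to 4. With the replicate number as a block, 2 were called higher. Serpina5 was not called against the controls at 72 h, as given above. Shbg (1.74, adjusted p = 0.000999), Ctsl (0.97, adjusted p = 0.000478), Col4a3 (2.04, adjusted p = 8.79e-05) and Col4a4 (1.38, adjusted p = 0.00259) were also higher at 72 h. So were 4 of 17 macrophage markers (23.5%), Cd68 (1.18), Fcer1g (1.40), Mrc1 (0.92) and C1qa (0.95), the last in 6 of 20 fits. The macrophage list summed to 9.82 to 10.24 at 12 h, when 15 of the 17 markers lay below the controls (median -0.14, 1 called lower). A higher value than at 12 h is thus not always a rise above the controls. Of 401 genes called between the 2 times, 196 were not called against the controls at 72 h. Of these 196, 50 were called lower than the controls at 12 h and higher again at 72 h, and 74 the reverse.

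A second set had risen at 12 h and was lower at 72 h. Aqp5, a water channel, had means of 3.19 in the controls, 7.36 at 12 h and 3.94 at 72 h (72 h minus 12 h -3.42, adjusted p = 0.000478). Crym, a thyroid hormone binding protein (-2.78), Tnfrsf12a, a cytokine receptor (-2.74), and Hs3st1, which modifies heparan sulphate (-2.58), followed, with adjusted p of 0.00349, 0.00104 and 0.0016. Dmkn (-2.76, adjusted p = 0.0201) held in 17 fits and was lost without 72 h replicate 2 (adjusted p = 0.0575) or 3 (adjusted p = 0.0563). Apart from Dmkn (1.36, adjusted p = 0.165), these genes differed from the controls by -0.74 to 0.75 at 72 h and were not called. Igfbp3 fell further after 12 h, by 2.62 (adjusted p = 0.0204), a call held in 18 fits and lost without 12 h replicate 3 (-2.51, adjusted p = 0.0705).

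**Figure D5:**
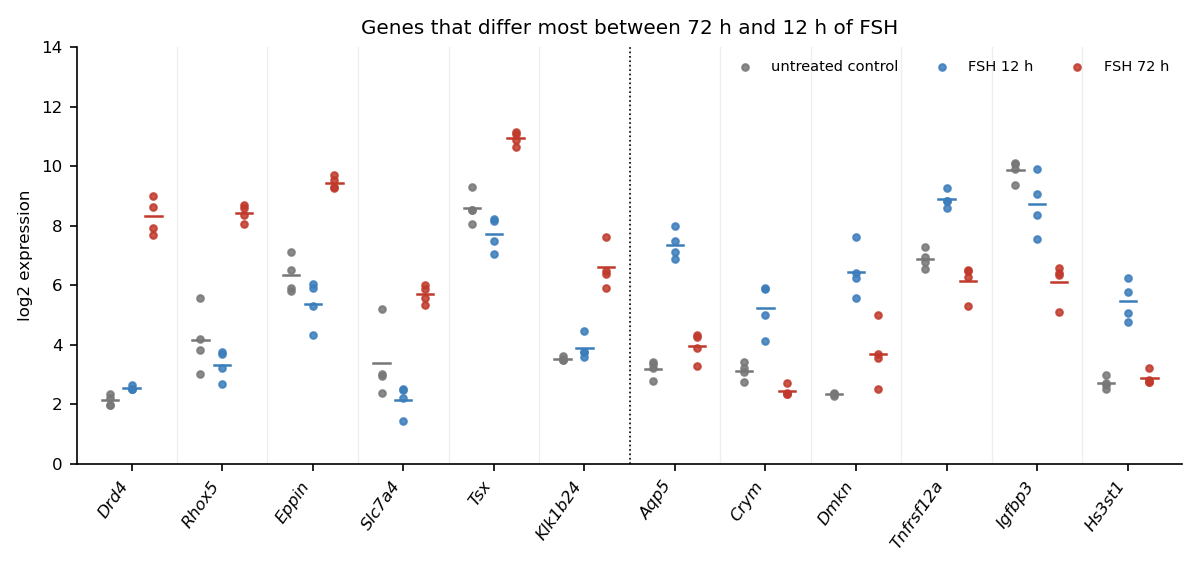
Log2 expression per array, in the controls, at 12 h and at 72 h, of the genes lower at 72 h than at 12 h and the genes higher at 72 h, 6 of each. Drd4, Rhox5, Eppin, Tsx and Klk1b24 at 12 h lie below every array at 72 h, and Aqp5 is above 6.8 at 12 h and below 4.4 at both other stages.

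Steroid and cholesterol genes were on the declining side. Star was at 7.92, 7.70, 8.71 and 8.26 at 12 h, 1.66 above 72 h (72 h minus 12 h -1.66, adjusted p = 0.0143), and Cyp17a1 at 11.50, 11.28, 11.20 and 11.01 (-2.46, adjusted p = 0.0122). Every 12 h array of both genes lay above every 72 h array. Of 19 cholesterol genes 8 were lower at 72 h than at 12 h (42.1%, beside 1.3% of all genes) and 1 higher (5.26%, beside 1.94%), with a median of -0.53. The 8 became 5 without any one of 12 h replicates 3 and 4 and 72 h replicates 3 and 4, since Hmgcs1, Mvd and Nsdhl lost their calls. With the replicate number as a block, 1 was lower and 0 were higher. The lower genes that held in all 20 fits without that block include Sqle, an early sterol enzyme (-1.24, adjusted p = 0.00102), Dhcr7 (-1.03, adjusted p = 0.00109) and Fdps (-1.03, adjusted p = 0.00406). Tm7sf2 was higher (0.66, adjusted p = 0.00733). Col4a1 (-1.30, adjusted p = 0.0053) and Wif1 (-1.85, adjusted p = 0.00147) were lower than at 12 h and above the controls. Nr4a1, an immediate early nuclear receptor, was at 6.28, 6.53, 7.43 and 6.79 at 12 h and at 5.22 to 5.54 at 72 h (-1.42, adjusted p = 0.00978). Inha (0.07, adjusted p = 0.839), Fshr (-0.01, adjusted p = 0.978), Tubb3 (0.00, adjusted p = 0.998) and Fabp5 (0.32, adjusted p = 0.737) were not called between the 2 times.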

How the data were processed

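Single-colour Affymetrix MOE430A arrays measured RNA of whole testes, 1 mouse per array. The values are the log2 expression levels the authors deposited per probe set. Per the submitters' processing notes, RMA and GCRMA were used, and which of them made these values is not given in the sources used here. No build is named. Of 22690 probe sets, 64 control probe sets (AFFX) were left out and 22626 were tested. GEO's platform annotation gave 1 gene symbol to 20380, several to 691 and none to 1555, and no gene is named from a probe set with several.

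One limma model (R 4.3.3, limma 3.58.1) was fitted to the 12 arrays that carry the Dap spike-in, with means for control, 12 h and 72 h and 9 residual degrees of freedom, and p-values were adjusted by Benjamini-Hochberg over all probe sets. Groups came from the labels. Array number limits the precision. Array medians were 4.54 to 4.63 in the controls and 4.50 to 4.55 at 72 h, and the signal of the actin 3' probe set exceeded that of the 5' one by 1.22 to 1.82. The 6 arrays without the spike-in, on which 18S ribosomal RNA was at 9.07 to 11.7 against 3.35 to 3.70, entered only alternative fits.

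The members and the 35 gene lists were chosen with earlier results of these data known. Genes named are the 16 largest rises and 12 largest falls called with groups that do not overlap, up to 5 called genes per list by smallest p, 6 per direction between 72 h and 12 h, and genes fixed whatever their values. Other list members and the germ cell genes of controls 5 and 6 are examples chosen after their values were seen. Alternatives varied the arrays, the array set as a block, centring, quantile normalisation, a filter at a mean log2 of 4, the eBayes prior and each array left out. Leaving out controls 5 and 6 together, and fitting the 8 FSH arrays without a block, were added after the data were seen. On simulated data for 72 h against control (22626 probe sets), 85 of 100 changes of 2-fold and 97 of 100 of 4-fold were called, and 5 of 22426 unchanged probe sets. The simulated noise was normal and independent between probe sets and arrays, with no deviating array such as controls 5 and 6. These rates therefore need not hold for the real arrays.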

Additional observations from a re-analysis of the deposited data

Results flagged for a closer look

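In 23 of 322 sets of 4 arrays examined, 1 array lay far from the other 3 by Dixon's criterion, which chance alone meets in about 1 in 20 groups. In 72 h replicate 4, Igfbp3 (5.08), Slc40a1 (4.01) and Ddx60 (3.39) were the low arrays of their group, and Sycp3 (12.33) and Hs3st1 (3.23) the high ones. In control 5, Tmem37 (6.40) was low, and Fst (3.28), Cyp11a1 (4.40), Grk5 (6.79), Dhcr7 (6.67) and Serpinh1 (8.45) were high. Control 6 was low for Hopx (7.85) and Ier3 (6.14). In 72 h replicate 1, Igf1 (9.96) and Hsd3b1 (11.45) were low and Crym (2.73) was high, and in 72 h replicate 2 Erbb3 (3.20) was high. Among summed list levels, control 6 was low for regulators of G protein signalling (10.21) and for spermatogonial genes (12.61), and control 7 was high for endoplasmic reticulum chaperones (14.59). At 72 h, replicate 1 was high for macrophage markers (11.04), and replicate 4 for cell cycle genes (13.69) and for kallikrein and histamine genes (9.85).

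Between mice treated for 72 h and for 12 h, the genes below had the largest differences called in the limma fit, and were picked for their size. The log2 value at 72 h minus that at 12 h was 5.77 for Drd4, 5.09 for Rhox5, 4.06 for Eppin, 3.54 for Slc7a4, 3.21 for Tsx and 2.70 for Klk1b24. It was -3.42 for Aqp5, -2.78 for Crym, -2.76 for Dmkn, -2.74 for Tnfrsf12a, -2.62 for Igfbp3 and -2.58 for Hs3st1.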

How the results depend on the processing

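Of the named genes called at 72 h, 0 changed direction. Of 70 list medians, 28 had the opposite sign in 1 or more alternatives, 24 of which were at most 0.06 in size. Rises went from 56.4% of the calls to 48.9% without control 6, and the median of spermatocyte and spermatid genes from -1.30 to 0.04. Leaving out 1 array gave 1058 to 1694 calls at 72 h against the controls (605 to 982 higher, 453 to 810 lower), and 308 to 655 against 12 h (173 to 353 higher, 135 to 302 lower). The lowest counts came without 72 h replicate 3 and without 12 h replicate 3. Of 107 named genes called at 72 h, 60 held in every alternative. With a filter at a mean log2 of 4, which leaves out dim members, list medians for 72 h minus control were -0.53 (regulators of G protein signalling), 2.33 (androgen responsive), 1.27 (fat cell), -0.48 (spermatogonia), -0.35 (immediate early), 0.17 (amino acid transporters), -0.15 (junctions), 1.02 (Wnt inhibitors), -0.66 (interferon) and 2.45 (kallikrein and histamine). For 72 h minus 12 h they were 1.21 (androgen responsive), -0.41 (steroid), -0.34 (myoid), 0.39 (fat cell), 0.63 (spermatocytes and spermatids), -0.61 (immediate early), -0.41 (retinoid), -0.19 (Wnt inhibitors), -0.066 (germ cell growth factors) and 1.03 (kallikrein and histamine). This filter takes the mean over all 12 arrays, treated ones included. A gene near the floor in the controls can pass it through its treated arrays, so these medians may in part reflect that selection. With all 18 arrays and no block, medians against the controls were -0.036 (red blood cell), -0.049 (epididymis), -0.16 (immediate early) and 0.43 (glucose). Centring gave 0.079 for red blood cell markers, and leaving out controls 5 and 6 gave -0.39 for spermatogonia and 0.26 for iron. The cause was not tested. Leaving out 1 array moved the medians of 72 h minus 12 h from -0.070 to 0.0057 (FSH receptor signalling) and from -0.28 to -0.13 (myoid). The fit of only the 8 arrays of 72 h and controls gives no value against 12 h. With the replicate number as a block, on the 8 FSH arrays, 98 probe sets were called between 72 h and 12 h (56 higher, 42 lower), against 592 in the 12 arrays and 533 in the 8 without the block. The samples share only a number: same-numbered arrays correlated at 0.107, 0.130, 0.013 and 0.068 in their deviations, and 12 h replicates 1 and 2 correlated best with their own number. No paired analysis was possible for 72 h against the controls because they share replicate number 4 alone. Array number and dim probe sets, whose values sit near the floor, limit what small differences can be seen.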
